A study of Mus musculus with 13 samples.

Results

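Vwf, the gene for von Willebrand factor, was followed through 13 bulk RNA-seq libraries of mouse haematopoietic stem cells (HSCs) and is 1 of the 24015 gene symbols in the deposited count table. It was chosen by its measured count, which was already known to differ between the classes of reconstitution, so its own levels and fold changes are given below as a description, with no test. The study transplanted single Vwf+ HSCs into mice and sorted the progeny of each one from the recipient's bone marrow at the end of a 16 week follow-up. The 3 PLT-HSC libraries came from P-restricted reconstitution, the 6 PEM-HSC libraries from PEM-restricted reconstitution and the 4 MUL-HSC libraries from multilineage reconstitution. All 3 classes share the strain C57BL/6, a donor cell that was Vwf+, and a sort for CD45.2+ cells that were LSK, Flt3-, CD150+, CD48- and Gata1-, with 100 cells per library. The alleles that mark Vwf and Gata1 and the age of the mice are not given in the sources used here. Each clone starts from 1 cell, and the labels do not say which libraries share a recipient, so a p-value here speaks only for the spread among these libraries, part of which may be technical.

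Von Willebrand factor is a large glycoprotein that tethers platelets to damaged vessel walls through the glycoprotein Ib complex and carries coagulation factor VIII in plasma. It is made in endothelial cells, where it is stored in Weibel-Palade bodies, and in megakaryocytes, which pack it into the alpha granules of platelets. A fraction of mouse HSCs also transcribes the gene, and that fraction has been described as biased towards platelets and other myeloid cells.

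Vwf was measured at 104.5, 104.1 and 200.0 CPM (the gene's count in each 1000000 gene counts of the library) in PLT-HSC replicates 1, 2 and 3. In the 6 PEM-HSC libraries the lowest, median and highest levels were 32.4, 81.3 and 113.3 CPM. In MUL-HSC replicates 1 to 4 it was measured at 4.91, 9.42, 13.4 and 12.8 CPM. Every MUL-HSC library therefore lay below every library of the other classes, whereas PLT-HSC and PEM-HSC overlapped: PEM-HSC replicate 2, at 113.3 CPM, stood above PLT-HSC replicates 1 and 2. Class levels were 136 ± 55.3 CPM in PLT-HSC (SD, n = 3), 78.2 ± 32.1 CPM in PEM-HSC (n = 6) and 10.1 ± 3.89 CPM in MUL-HSC (n = 4).

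**Figure D1:**
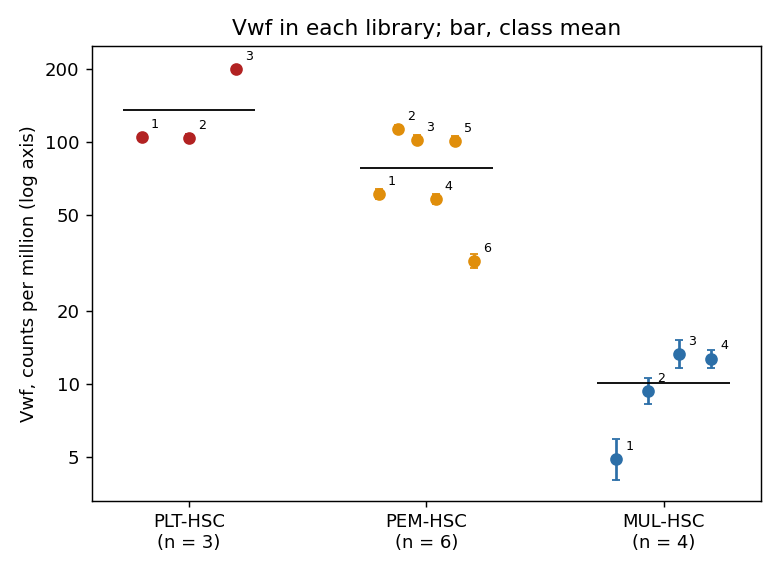
Vwf level in CPM on a log axis, with 1 point per library, the replicate number beside it, the class mean as a horizontal line and exact Poisson 95% intervals as error bars. The MUL-HSC points, 4.91 to 13.4 CPM, lie below all other points, while PLT-HSC, 104.1 to 200.0 CPM, and PEM-HSC, 32.4 to 113.3 CPM, overlap.

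The transcript was covered by 3033 to 6488 reads in PLT-HSC libraries, 860 to 2597 in PEM-HSC libraries and 109 to 529 in MUL-HSC. The exact 95% Poisson interval was 195 to 205 CPM in PLT-HSC replicate 3 and 4.03 to 5.92 CPM in MUL-HSC replicate 1, the library with the fewest Vwf reads. These intervals cover the counting error of reads only. The libraries as labelled carry no molecular identifiers, so amplified copies of 1 molecule count as separate reads. The intervals may therefore be too narrow for the sampling of molecules. As computed, they are much narrower than the spread between libraries of 1 class. There the highest level exceeded the lowest 1.92-fold in PLT-HSC, 3.50-fold in PEM-HSC and 2.72-fold in MUL-HSC. The coefficients of variation were 40.6% among PLT-HSC, 41.0% among PEM-HSC and 38.4% among MUL-HSC in CPM, but this closeness depended on the scaling. By TMM they were 30.9% among PLT-HSC, 42.0% among PEM-HSC and 36.3% among MUL-HSC. Per 1000 spike-in reads they were 95.4% among PLT-HSC, 43.6% among PEM-HSC and 75.3% among MUL-HSC.

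The fitted log2 fold change of Vwf was 3.72 (SE 0.45) for PLT-HSC against MUL-HSC and 2.94 (SE 0.41) for PEM-HSC against MUL-HSC. For PLT-HSC against PEM-HSC it was 0.78 (SE 0.39), and there the libraries overlapped. The ratios of class mean CPM were 13.5, 7.72 and 1.74 for these comparisons. Scaled to the spike-in reads in place of the gene total, the ratios were 14.1, 6.54 and 2.16. Among the 8683 genes tested with a mean of at least 10 CPM, Vwf ranked 17 by fold change for PLT-HSC and 16 for PEM-HSC against MUL-HSC, and 530 for PLT-HSC against PEM-HSC. The comparisons with MUL-HSC share their control libraries, so these ranks are not independent of each other.

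PLT-HSC replicate 3 set much of the spread of its class. Without it the log2 fold change was 3.43 against MUL-HSC and 0.48 against PEM-HSC. Per 1000 spike-in reads it gave 1027 Vwf reads, against 220 and 219 in PLT-HSC replicates 1 and 2. It also had the most detected genes of all libraries, 12310, and the lowest spike-in share of its class, 0.0195% of reads, against 0.0474% and 0.0475% in the other PLT-HSC libraries. The part of these differences in its Vwf level was not tested.

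Per kilobase of the longest annotated transcript, 8834 bases, Vwf stood at 15.4 ± 6.26 CPM per kb in PLT-HSC, 8.85 ± 3.63 CPM per kb in PEM-HSC and 1.15 ± 0.440 CPM per kb in MUL-HSC. Among all tested genes on this per-length scale, its percentile was 57.5 to 68.3 in PLT-HSC libraries, 36.7 to 60.5 in PEM-HSC libraries and 18.9 to 26.1 in MUL-HSC. Vwf was thus near the middle of the tested genes in both restricted classes and in the lowest 26.1% in each MUL-HSC library. Selp, the P-selectin that shares the storage granules of von Willebrand factor, averaged 72.7 CPM per kb in PLT-HSC, 68.3 CPM per kb in PEM-HSC and 29.9 CPM per kb in MUL-HSC libraries, above Vwf in each class. Since these are bulk samples, fewer cells that transcribe a gene and less of its RNA per cell cannot be told apart.

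Across the whole table the libraries held 29017378 to 32437607 gene counts in PLT-HSC, 22913695 to 28013676 gene counts in PEM-HSC and 16371921 to 41367057 gene counts in MUL-HSC, with 11233 to 12310 detected genes. PLT-HSC libraries were thus all deeper than PEM-HSC libraries, while MUL-HSC spanned both, and the part of depth in the results was not tested. A gene was called when its edgeR quasi-likelihood p-value, adjusted by the Benjamini-Hochberg method over 12536 tested genes, was under 0.05. Leaving Vwf aside, 5 of the other 12535 genes (0.0399%) were called for PLT-HSC against MUL-HSC, of which 4 (0.0319%) were higher and 1 (0.00798%) lower: Rdh10, Phf11d, Mef2c and Ctnnal1 were higher in PLT-HSC, and Otos was lower. For PEM-HSC against MUL-HSC and for PLT-HSC against PEM-HSC edgeR called 0 of them (0%), with 743 and 467 at an unadjusted p under 0.05. DESeq2 called 176 and 115 genes in these comparisons, and voom called 1 in each. The count moved with single libraries. With 1 PLT-HSC library left out, 1, 0 and 36 genes were called for replicates 1, 2 and 3 in turn. With 1 MUL-HSC library left out, 0, 1, 20 and 2 were called for replicates 1 to 4, and with PEM-HSC replicate 2 left out 8 were, against 2 for each of PEM-HSC replicates 1, 3 and 6.

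Of these, Rdh10, a retinol dehydrogenase of retinoic acid synthesis, had 185.9, 120.7 and 57.7 CPM in PLT-HSC, 9.10, 47.1 and 88.6 CPM as lowest, median and highest across PEM-HSC libraries, and 2.25, 1.35, 0.428 and 4.62 CPM in MUL-HSC. Its MUL-HSC libraries lay below all others, as those of Vwf did, and its log2 fold change for PLT-HSC against MUL-HSC was 5.83 (SE 0.84, edgeR adjusted p = 0.0189). Mef2c, a transcription factor of muscle and blood cells, had 435.5, 341 and 368 CPM in PLT-HSC, 171, 253 and 312 CPM as lowest, median and highest across PEM-HSC libraries, and 148, 188, 128 and 136 CPM in MUL-HSC. Its PLT-HSC libraries lay above all others, and its log2 fold change for PLT-HSC against MUL-HSC was 1.33 (SE 0.23, edgeR adjusted p = 0.0487). The call of Mef2c held in 9 of 24 alternatives and was lost without any one of the MUL-HSC libraries, PLT-HSC replicates 1 and 2 or PEM-HSC replicates 1, 2, 3 and 6. That of Rdh10 held in 17 of 24 and was lost when replicate 1 or replicate 2 of either MUL-HSC or PLT-HSC was left out.

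The genes whose profile over the 13 libraries lay closest to that of Vwf were ranked by the root mean square difference of log2 CPM, each gene centred on its own mean. The 10 closest among 8349 ranked genes had differences of 0.71 to 0.98 log2 units, where a gene with no variation would have 1.61, the median gene had 1.72 and the closest 5% of genes lay below 1.42. They were Gadd45g, Ctnnal1, Erp27, Exoc6b, Clec1a, Nrg4, Neat1, Mt1, Ces2g and Syt11. These genes were picked for their likeness to a profile that separates the classes, so their class differences are a description.

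Gadd45g, a stress-induced regulator of growth arrest, was closest, with a difference of 0.71. Its levels were 69.6, 166 and 80.2 CPM in PLT-HSC, 48.2, 84.0 and 167 CPM as lowest, median and highest across PEM-HSC libraries, and 4.96, 9.92, 17.3 and 31.9 CPM in MUL-HSC. As with Vwf, all MUL-HSC libraries were below all others, but PLT-HSC replicate 2 and not replicate 3 was the highest of its class. The log2 fold change was 2.77 (SE 0.55) for PLT-HSC and 2.51 (SE 0.50) for PEM-HSC against MUL-HSC.

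Ctnnal1, which encodes alpha-catulin and marks mouse HSCs, was the second closest, with a difference of 0.79. It had 85.7, 57.1 and 100.4 CPM in PLT-HSC, 16.2, 31.2 and 52.8 CPM as lowest, median and highest across PEM-HSC libraries, and 3.65, 9.88, 12.5 and 16.2 CPM in MUL-HSC. The 3 PLT-HSC libraries lay above all others, and the lowest PEM-HSC library and the highest MUL-HSC library had almost the same level. Its log2 fold change for PLT-HSC against MUL-HSC was 2.93 (SE 0.50, edgeR adjusted p = 0.0487). That call was lost without any one of the MUL-HSC or PLT-HSC libraries, or of PEM-HSC replicates 1, 3, 4 and 6, with adjusted p-values of 0.0503 to 0.173.

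Nrg4, a growth factor of the neuregulin family, had the largest fold change of the 10 for PLT-HSC against MUL-HSC. It had 202, 312 and 157 CPM in PLT-HSC, 16.0, 77.2 and 132 CPM as lowest, median and highest across PEM-HSC libraries, and 3.47, 9.46, 9.77 and 38.0 CPM in MUL-HSC. PLT-HSC lay above both other classes, which overlapped through PEM-HSC replicate 4. Its log2 fold changes were 3.94 (SE 0.70) for PLT-HSC and 2.38 (SE 0.61) for PEM-HSC against MUL-HSC.

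Syt11, of the synaptotagmin family of membrane trafficking proteins, had 44.7, 20.4 and 22.2 CPM in PLT-HSC, 6.32, 16.8 and 35.8 CPM as lowest, median and highest across PEM-HSC libraries, and 0.496, 4.82, 0.428 and 2.68 CPM in MUL-HSC. Neat1, a long noncoding RNA that builds paraspeckles, had 79.2, 80.1 and 111 CPM in PLT-HSC, a lowest, median and highest of 31.5, 80.6 and 137 CPM across PEM-HSC libraries, and 19.8, 28.7, 33.8 and 42.0 CPM in MUL-HSC. Syt11 separated MUL-HSC from the rest completely, whereas for Neat1 the lowest PEM-HSC library, replicate 6, which was also lowest for Vwf, fell within MUL-HSC. The other 5 genes had log2 fold changes of 1.62 to 2.38 for PLT-HSC and 1.54 to 1.84 for PEM-HSC against MUL-HSC. Of these, Erp27 is an endoplasmic reticulum protein, Exoc6b a subunit of the exocyst, Clec1a a C-type lectin receptor, Mt1 a metallothionein and Ces2g a carboxylesterase. Mt1 and Ces2g have close relatives in the genome, so reads may have been split between copies and their counts are uncertain.

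**Figure D2:**
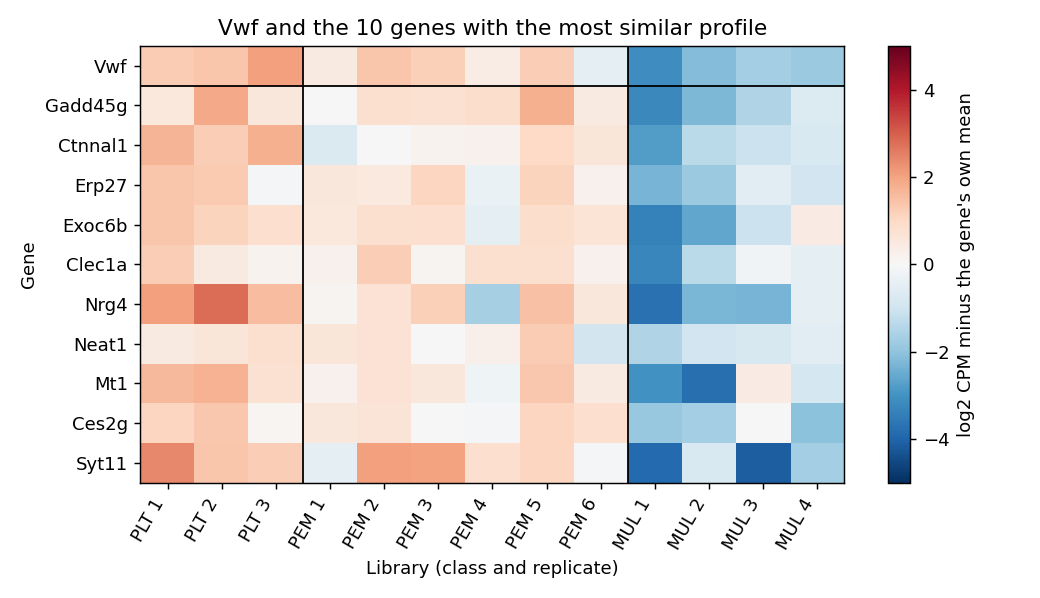
Profiles of Vwf and of the 10 genes closest to it over 13 libraries, as log2 CPM minus each gene's own mean, in colour. The MUL-HSC columns are mostly blue, that is below the gene's mean, and MUL-HSC replicate 1 is at -1.50 or lower in all 11 genes, while replicate 4 in Exoc6b and replicate 3 in Mt1 and Ces2g lie at 0.03 to 0.43.

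The ranking rested in part on MUL-HSC replicate 1, which had the lowest Vwf level. Without it 3 of the 10 genes stayed among the 10 closest, and 0 did when MUL-HSC replicate 2 was left out as well, a choice made once the values were known. Leaving out PEM-HSC replicate 2 kept 6 of the 10, as did leaving out PLT-HSC replicate 3. The strict pattern of Vwf, with every MUL-HSC library below every other library, was shown by 47 other genes (0.375% of those tested), and the reverse by 31 (0.247%). Without 1 of MUL-HSC replicates 1, 2, 3 and 4 the count was 73, 77, 137 and 139, since fewer libraries then had to lie low. Among the 47 were Gadd45g, Erp27, Clec1a and Syt11 of the 10 closest genes, and Rdh10 and Phf11d of the called ones.

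Genes that vary with Vwf among libraries of 1 class were sought separately, after the class means had been subtracted. The edgeR test of the slope on the centred Vwf level called 0 of 12535 genes (0%), with 293 at an unadjusted p under 0.05 and a lowest adjusted p of 1. DESeq2 called 75 genes, and 3 when only genes with a mean of at least 10 CPM were tested, and voom called 0. The smallest unadjusted p-values belonged largely to patchy genes: Zfp300, a zinc finger gene, had 10.3 CPM in PLT-HSC replicate 3 and 0 in the other PLT-HSC libraries, and 16.8 CPM in MUL-HSC replicate 3 with at most 0.0386 CPM in the other MUL-HSC libraries.

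By correlation of the class-centred values over the 13 libraries, which share class means and library scaling, Maf1, Asun, Dopey2, Atp6v0a2 and Ddx54 followed Vwf most closely, with Pearson's r of 0.84 to 0.86. Maf1, a repressor of RNA polymerase III, had 326, 291 and 378 CPM in PLT-HSC, 343, 363 and 428 CPM as lowest, median and highest across PEM-HSC libraries, and 234, 303, 312 and 321 CPM in MUL-HSC. Like Vwf, it was highest of its class in PLT-HSC replicate 3 and in PEM-HSC replicate 2 and lowest of its class in MUL-HSC replicate 1, although its whole range was far narrower. Its r was 0.86 and Spearman's rho 0.85 over 13 libraries, and r was 0.79 without PEM-HSC replicate 6 and MUL-HSC replicate 1, the libraries with the most extreme centred Vwf.

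Atp6v0a2, a subunit of the proton pump of secretory and lysosomal membranes, had 43.5, 26.7 and 43.9 CPM in PLT-HSC, 7.05, 22.6 and 65.9 CPM as lowest, median and highest across PEM-HSC libraries, and 19.1, 21.2, 34.1 and 44.0 CPM in MUL-HSC. Its class ranges overlapped, and r was 0.94 over the 6 PEM-HSC libraries alone. Prpf4b, a kinase of the splicing machinery, ran most strongly the other way, at r = -0.82 over 13 libraries and -0.82 again without the same 2 libraries. It had 183, 128 and 131 CPM in PLT-HSC, 64.0, 79.7 and 167 CPM as lowest, median and highest across PEM-HSC libraries, and 99.9, 112, 75.9 and 105 CPM in MUL-HSC. Its highest PEM-HSC level was in replicate 6, the PEM-HSC library with the least Vwf.

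Stxbp6, Bivm, Casp4 and Vrk2 had r of -0.77 to -0.79. In all, 40 genes had r over 0.7 and 28 had r under -0.7, and the median gene had r = -0.02. None of the 10 genes named here stayed among the 5 highest or 5 lowest once PEM-HSC replicate 6 and MUL-HSC replicate 1 were left out.

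**Figure D3:**
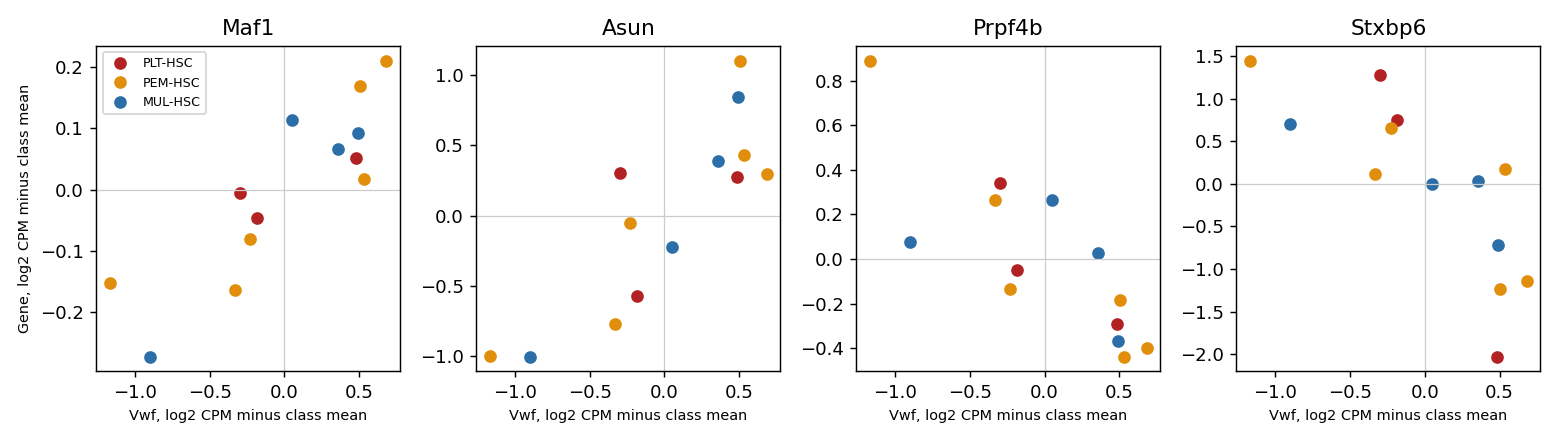
Class-centred log2 CPM of Maf1, Asun, Prpf4b and Stxbp6, on the vertical axes, against class-centred log2 CPM of Vwf, with 1 point per library coloured by class. Maf1 and Asun rise with Vwf (r = 0.86 and 0.85) and Prpf4b and Stxbp6 fall (r = -0.82 and -0.79), over vertical ranges that differ between panels.

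The genes through which von Willebrand factor works were then examined by role. Of the 15 platelet receptors and ligands listed, 12 were tested, 0 were called in either comparison with MUL-HSC, and the median log2 fold change was 0.71 in PLT-HSC and 0.05 in PEM-HSC, against 0.04 and 0.01 over all genes tested. The integrin subunit Itgb1, which had the highest mean of the list over all 13 libraries, was at 238 ± 89.9 CPM in PLT-HSC, 181 ± 48.1 CPM in PEM-HSC and 214 ± 104 CPM in MUL-HSC. For PLT-HSC against MUL-HSC 1 member, Gp9, lay higher with no overlap of libraries, which 3.74% of all tested genes did, and 1, Gp5, lay lower, which 3.04% did. The members of the glycoprotein Ib complex, the receptor for von Willebrand factor, thus had fitted fold changes of both signs. Without PLT-HSC replicate 3 the median for PLT-HSC was 0.05, and with 1 library left out that for PEM-HSC ran from -0.05 (without PEM-HSC replicate 4) to 0.58 (without MUL-HSC replicate 4).

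Gp9 had 78.8, 65.5 and 81.7 CPM in PLT-HSC, 28.1, 81.2 and 97.3 CPM as lowest, median and highest across PEM-HSC libraries, and 27.0, 50.3, 58.3 and 30.7 CPM in MUL-HSC. Gp1ba, the chain that binds von Willebrand factor, was patchy, with 10.1, 0 and 3.67 CPM in PLT-HSC, a lowest, median and highest of 0, 1.49 and 33.6 CPM across PEM-HSC libraries, and 15.1, 0, 0 and 49.5 CPM in MUL-HSC. Its highest library was thus MUL-HSC replicate 4, and libraries at 0 occurred in each class. Selp had 465, 158 and 127 CPM in PLT-HSC, a lowest, median and highest of 104, 236 and 346 CPM across PEM-HSC libraries, and 18.4, 57.2, 179.6 and 156 CPM in MUL-HSC. MUL-HSC replicates 3 and 4, which had the most Vwf of their class, reached the levels of PLT-HSC replicates 2 and 3 for Selp. The log2 fold change of Selp for PLT-HSC against MUL-HSC was 1.31 (SE 0.60, edgeR adjusted p = 0.66).

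Genes that cleave or clear the protein were mostly too low to be tested. Of 17 listed, 5 had enough counts to be tested and 5 were at 0 in every library. Adamts13, the protease that cuts von Willebrand factor multimers, reached 0.0308 CPM in PLT-HSC, 0.0431 CPM in PEM-HSC and 0 in MUL-HSC, below the floor of 3 counts, which is 0.183 CPM in the shallowest library. Adam10, a sheddase, was at 224 ± 96.1 CPM in PLT-HSC, 216 ± 58.7 CPM in PEM-HSC and 192 ± 65.6 CPM in MUL-HSC, and its fold change was 0.19 on the log2 scale (SE 0.32, edgeR adjusted p = 0.999) for PLT-HSC against MUL-HSC. The median log2 fold change of the 5 was 0.19 in PLT-HSC and 0.16 in PEM-HSC. With 1 library left out it spanned -0.06 (without PLT-HSC replicate 1) to 0.45 (without PLT-HSC replicate 3) in PLT-HSC, and from -0.11 (without PEM-HSC replicate 3) to 0.30 (without MUL-HSC replicate 3) in PEM-HSC, where it was also negative, -0.07, without PEM-HSC replicate 5. Of the 5 tested, edgeR called 0 in either comparison with MUL-HSC, and 0 lay apart from MUL-HSC without overlap.

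Genes for processing, storage and secretion of the protein numbered 43 tested of 46 listed, and 0 were called. Their median log2 fold change was 0.15 in PLT-HSC and 0.07 in PEM-HSC against MUL-HSC. With 1 library left out it ran from 0.05 to 0.27 in PLT-HSC and from -0.006 to 0.24 in PEM-HSC, lowest without MUL-HSC replicate 3 and highest without MUL-HSC replicate 4 in both comparisons. Without overlap of libraries, 4 were higher in PLT-HSC than in MUL-HSC (Clint1, Sytl5, Stxbp5 and Rapgef3) and 1, Anxa2, was lower. These are 9.30% and 2.33% of the tested members, beside 3.74% and 3.04% of all tested genes. The 4 most abundant members were Cd63, Vamp8, Pdia3 and Pdia6, granule membrane proteins and disulfide isomerases, with log2 fold changes of -0.24 to 0.22 for PLT-HSC and -0.20 to 0.12 for PEM-HSC. In PEM-HSC against MUL-HSC 1 member, Snap23, lay higher without overlap, which 0.854% of all tested genes did.

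Snap23, a SNARE protein of granule exocytosis, had 555, 392 and 231 CPM in PLT-HSC, 353, 404 and 496 CPM as lowest, median and highest across PEM-HSC libraries, and 203, 159, 200.2 and 243 CPM in MUL-HSC. All PEM-HSC libraries lay above all MUL-HSC libraries, while PLT-HSC replicate 3 fell within MUL-HSC. The log2 fold change was 0.99 (SE 0.25, edgeR adjusted p = 0.25) for PLT-HSC and 1.03 (SE 0.22, edgeR adjusted p = 0.31) for PEM-HSC against MUL-HSC. Clint1, a clathrin adaptor of Weibel-Palade body formation known from endothelial cells, was at 145 ± 24.9 CPM in PLT-HSC, 108 ± 14.2 CPM in PEM-HSC and 84.2 ± 18.0 CPM in MUL-HSC. Furin, the protease that removes the propeptide of von Willebrand factor, was low throughout, at 4.88 ± 4.04 CPM in PLT-HSC, 5.04 ± 3.83 CPM in PEM-HSC and 3.35 ± 1.41 CPM in MUL-HSC.

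Transcription factors and cofactors reported to act on the Vwf gene were examined next. Of 34 listed, 32 were tested, 0 were called, and the median log2 fold change was 0.24 in PLT-HSC and 0.12 in PEM-HSC against MUL-HSC. With 1 library left out it spanned 0.07 (without PLT-HSC replicate 1) to 0.40 (without PLT-HSC replicate 2) in PLT-HSC, and from 0.0001 (without MUL-HSC replicate 2) to 0.18 (without PEM-HSC replicate 3) in PEM-HSC. Lying higher in PLT-HSC than in MUL-HSC without overlap were 3 members, Hhex, Sox18 and Mecom, which is 9.38% of those tested beside 3.74% of all tested genes, and 0 lay lower, beside 3.04%. Hhex and Sox18 also lay above PEM-HSC without overlap, which 1.1% of all tested genes did (1.06% lay below).

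Hhex, a homeobox factor of endothelial and blood cells, had 231, 224 and 219 CPM in PLT-HSC, 113, 152 and 175 CPM as lowest, median and highest across PEM-HSC libraries, and 120.5, 73.1, 134 and 213 CPM in MUL-HSC. PLT-HSC libraries lay close together and above all others. Mecom, a zinc finger factor needed by HSCs, had 205, 143 and 269 CPM in PLT-HSC, a lowest, median and highest of 80.0, 96.1 and 284 CPM across PEM-HSC libraries, and 43.7, 99.7, 99.0 and 61.6 CPM in MUL-HSC. The log2 fold changes for PLT-HSC against MUL-HSC were 0.74 (SE 0.27, edgeR adjusted p = 0.63) for Hhex and 1.40 (SE 0.42, edgeR adjusted p = 0.44) for Mecom. Lmo2, the most abundant member and a bridging protein of blood transcription factor complexes, was at 1758 ± 306 CPM in PLT-HSC, 2054 ± 307 CPM in PEM-HSC and 1692 ± 377 CPM in MUL-HSC. Gata2, a factor of HSCs and megakaryocytes, was at 133 ± 49.1 CPM in PLT-HSC, 95.9 ± 20.1 CPM in PEM-HSC and 82.8 ± 12.1 CPM in MUL-HSC. Gata1, a factor of red cells and megakaryocytes for which the sorted cells were negative per the labels, was at 8.41 ± 14.3 CPM in PLT-HSC, 8.48 ± 8.21 CPM in PEM-HSC and 16.7 ± 8.83 CPM in MUL-HSC.

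Genes that earlier work reported together with Vwf in platelet-biased or aged HSCs mostly had fold changes of the same sign as Vwf in both comparisons. This list was drawn up with results of these data known, so its direction is not independent evidence. Of its 41 members, 40 were tested. In PLT-HSC against MUL-HSC 39 had a positive fold change, with a median log2 fold change of 1.56, and in PEM-HSC against MUL-HSC 37 did, with a median of 1.20. With p-values adjusted over all genes 1 member, Ctnnal1, was called in PLT-HSC and 0 in PEM-HSC, and 15 in PLT-HSC and 5 in PEM-HSC lay above MUL-HSC without overlap, which are 37.5% and 12.5% of the tested members beside 3.74% and 0.854% of all tested genes. These counts could rise with 1 library left out, since fewer libraries then had to lie apart. They were 24 in PLT-HSC without its replicate 3 and 12 in PEM-HSC without MUL-HSC replicate 3. In PEM-HSC they were 9 without MUL-HSC replicate 4 and 8 without PEM-HSC replicate 3. The share of all genes was not counted in these smaller sets, so the rise cannot be credited to the list. In PLT-HSC against PEM-HSC 1 member, Ctnnal1, lay higher without overlap, which is 2.5% of the tested members beside 1.1% of all tested genes. Gstm2, Clec1a, Zg16, Cdkn1c and Mllt3 were the 5 that set PEM-HSC apart from MUL-HSC with all libraries kept.

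Clu, which encodes clusterin, had 311, 602 and 178 CPM in PLT-HSC, 30.9, 115 and 589.8 CPM as lowest, median and highest across PEM-HSC libraries, and 0, 0, 14.5 and 44.3 CPM in MUL-HSC. Its PLT-HSC libraries lay above all MUL-HSC libraries, while PEM-HSC overlapped MUL-HSC. Prcp, a carboxypeptidase, had 215, 139 and 230.0 CPM in PLT-HSC, a lowest, median and highest of 79.0, 149 and 179.5 CPM across PEM-HSC libraries, and 52.0, 56.2, 94.6 and 65.9 CPM in MUL-HSC. Its PLT-HSC libraries lay above all MUL-HSC libraries, and its log2 fold change for PLT-HSC against MUL-HSC was 1.51 (SE 0.30, edgeR adjusted p = 0.091). Mllt3, a chromatin reader that maintains human HSCs, had 654, 721 and 410.3 CPM in PLT-HSC, a lowest, median and highest of 311, 417 and 559 CPM across PEM-HSC libraries, and 156, 154, 309.9 and 159 CPM in MUL-HSC. MUL-HSC lay below both other classes, though its replicate 3 came close to the lowest PEM-HSC library. The log2 fold change of Mllt3 was 1.63 (SE 0.31, edgeR adjusted p = 0.06) for PLT-HSC and 1.11 (SE 0.27, edgeR adjusted p = 0.51) for PEM-HSC against MUL-HSC.

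The summed level of the list ordered the libraries as Vwf did in MUL-HSC but not in PLT-HSC or PEM-HSC. PLT-HSC replicate 3, with the most Vwf, had a summed level of 5651 CPM, against 9205 and 9550 CPM in PLT-HSC replicates 1 and 2. The sums in MUL-HSC replicates 1 to 4 were 2268, 2744, 5484 and 4110 CPM, with replicate 3 highest and replicate 1 lowest for both the list and Vwf. PEM-HSC replicate 6, with the least Vwf of its class, had 6349 CPM, between the lowest and highest PEM-HSC sums of 4658 and 8636 CPM. Class-centred r with Vwf was positive in 33 of the 36 members with a mean of at least 10 CPM, with a median of 0.27. Of all genes at that level 47.7% had a positive r. The list was drawn up with results of these data known, and its members were measured in the same 13 libraries. They are therefore not independent of each other, and the count of 33 is a description. Without PEM-HSC replicate 6 and MUL-HSC replicate 1 the median r was 0.16.

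Genes reported as higher in Vwf-negative or lymphoid-primed HSCs mostly had fold changes of the opposite sign. This list too was drawn up with results of these data known. Of 26 members in the table, 20 were tested, and 14 of them had a negative fold change in PLT-HSC and 13 in PEM-HSC against MUL-HSC. The medians were -1.29 and -0.59, beside 0.04 and 0.01 over all genes tested. A positive fold change was seen in 6 members in PLT-HSC and in 7 in PEM-HSC. None was called by edgeR, while 8 in PLT-HSC and 3 in PEM-HSC lay below MUL-HSC without overlap, which are 40% and 15% of the tested members beside 3.04% and 0.63% of all tested genes. Without MUL-HSC replicate 3 the count in PEM-HSC was 8. Fewer libraries then had to lie apart, and the share of all genes was not counted. In PLT-HSC against PEM-HSC Serpinb1a and Blnk lay lower without overlap, which 1.06% of all tested genes did.

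Cd34, a surface sialomucin of progenitors that is low on the most primitive mouse HSCs, had 41.7, 23.2 and 66.4 CPM in PLT-HSC, 21.7, 33.2 and 108 CPM as lowest, median and highest across PEM-HSC libraries, and 555, 449, 90.9 and 379.8 CPM in MUL-HSC. MUL-HSC replicate 3, which had the most Vwf of its class, had the least Cd34 and fell within the range of PEM-HSC. Class-centred r between Cd34 and Vwf was -0.67 over 13 libraries. Lat, an adaptor of the T cell receptor that platelets also use, had 46.5, 20.1 and 75.3 CPM in PLT-HSC, a lowest, median and highest of 65.4, 106 and 128 CPM across PEM-HSC libraries, and 176, 199, 137 and 160.0 CPM in MUL-HSC. For Lat both restricted classes lay below MUL-HSC without overlap, with log2 fold changes of -1.89 (SE 0.34, edgeR adjusted p = 0.056) for PLT-HSC and -0.74 (SE 0.27, edgeR adjusted p = 0.73) for PEM-HSC. Ctla2a, which has close copies and is uncertain, and Serpinb1a had log2 fold changes of -3.23 and -3.31 in PLT-HSC. The abundant members Lsp1, Cd53 and Plac8 went the other way. Against MUL-HSC their log2 fold changes were 0.26, 1.09 and 0.96 in PLT-HSC and 0.22, 0.81 and 0.79 in PEM-HSC.

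**Figure D4:**
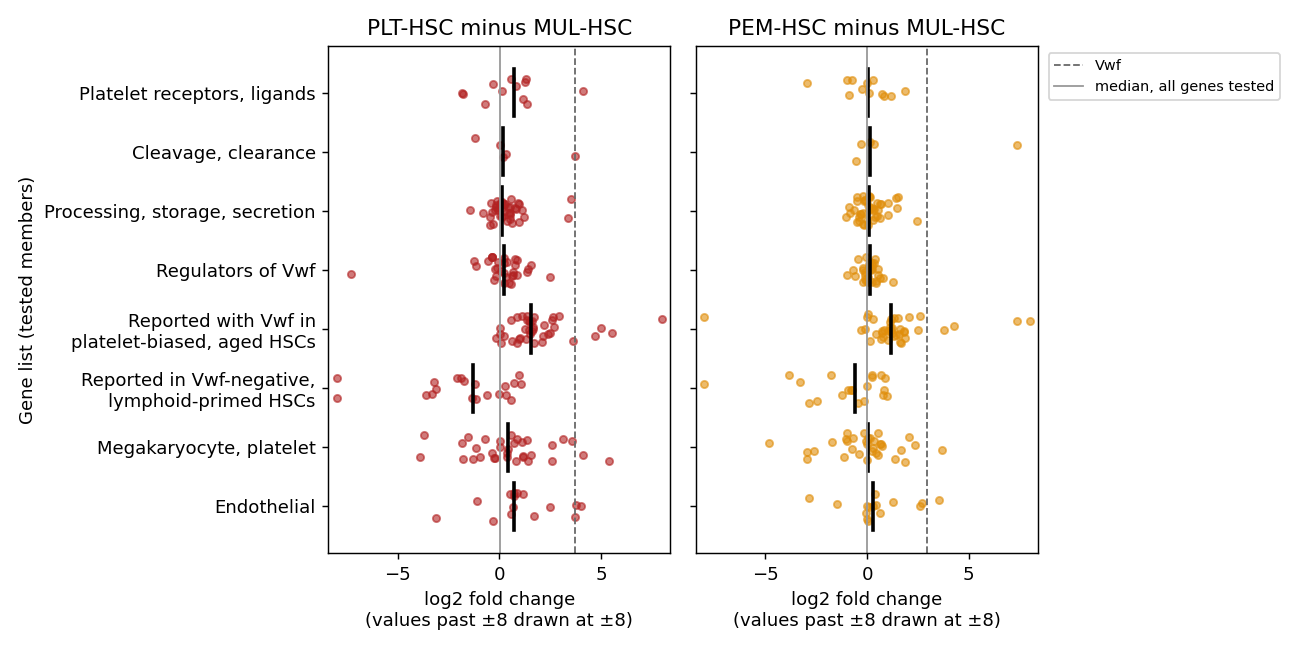
Log2 fold changes of the tested members of 8 gene lists for PLT-HSC and PEM-HSC against MUL-HSC, with 1 point per gene and a bar at the list median, beside the fold change of Vwf and the median of all genes tested. The list reported with Vwf has medians of 1.56 and 1.20, that of Vwf-negative cells -1.29 and -0.59, and the receptor, processing and regulator lists stand at 0.05 to 0.71 (values past 8 are drawn at 8).

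Markers of the cell types that make von Willebrand factor were checked in the same libraries. Megakaryocyte and platelet markers, 33 of 37 tested, summed to 4379 to 4782 CPM in PLT-HSC, 4149 to 5513 CPM in PEM-HSC and 3837 to 5169 CPM in MUL-HSC, so the classes overlapped. Their median log2 fold change was 0.42 in PLT-HSC and 0.02 in PEM-HSC, and 0 were called by edgeR. With 1 library left out the value for PLT-HSC spanned 0.16, when PLT-HSC replicate 3 was dropped, to 0.60, when MUL-HSC replicate 4 was, and that for PEM-HSC spanned -0.08 (without PEM-HSC replicate 2) to 0.15 (without PEM-HSC replicate 4), being also negative, -0.02, without PEM-HSC replicate 3. In PLT-HSC against MUL-HSC Gp9, Clec1b and Sdpr lay higher and Gp5 and F2rl2 lower without overlap, which are 9.09% and 6.06% of the tested markers beside 3.74% and 3.04% of all tested genes. In PEM-HSC 0 did either, beside 0.854% and 0.63%. Pf4, platelet factor 4, was at 40.6 ± 18.5 CPM in PLT-HSC, 61.2 ± 19.0 CPM in PEM-HSC and 99.2 ± 69.7 CPM in MUL-HSC, with edgeR adjusted p = 0.63 for PLT-HSC and 0.999 for PEM-HSC against MUL-HSC.

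Endothelial markers summed to 1294 to 1534 CPM in PLT-HSC, 965 to 1271 CPM in PEM-HSC and 900.3 to 1460 CPM in MUL-HSC, and overlapped between classes. Much of the MUL-HSC sum was Cd34. Without Cd34, a choice made once the values were known, the sums were 1260 to 1467 CPM in PLT-HSC, 925 to 1250 CPM in PEM-HSC and 799.9 to 1081 CPM in MUL-HSC, so that PLT-HSC lay above both other classes. Of 30 markers, 5 were at 0 in every library, among them Cdh5, the VE-cadherin that defines endothelium, and 15 were tested, with 0 called. Of the 15, 12 had a positive fold change in PLT-HSC and 12 in PEM-HSC against MUL-HSC, with medians of 0.71 and 0.31 on the log2 scale. With 1 library left out the median for PEM-HSC ran from 0.11 (without MUL-HSC replicate 3) to 0.46 (without PEM-HSC replicate 3). The part of the endothelial markers in the Vwf level was not tested. Sox18, Ramp2 and Icam2 lay higher and Cd34 lower in PLT-HSC than in MUL-HSC without overlap, which are 20% and 6.67% of the tested markers beside 3.74% and 3.04% of all tested genes. In PEM-HSC only Ramp2 of these markers lay higher without overlap, which 0.854% of all tested genes did. Ramp2, a receptor partner of adrenomedullin in endothelium, was measured at 155 ± 103 CPM in PLT-HSC, 115 ± 66.3 CPM in PEM-HSC and 10.1 ± 13.4 CPM in MUL-HSC.

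HSC markers summed to 3704 to 4885 CPM in PLT-HSC, 3462 to 3931 CPM in PEM-HSC and 2421 to 3487 CPM in MUL-HSC. Every PLT-HSC sum thus lay above every MUL-HSC sum. All 14 were tested, and 1, Ctnnal1, was called higher in PLT-HSC than in MUL-HSC, as 0.0319% of all tested genes were. Against MUL-HSC 13 had a positive fold change in PLT-HSC and 12 in PEM-HSC, with medians of 0.87 and 0.52 (log2). Without overlap, 3 lay higher in PLT-HSC and 1 in PEM-HSC. These are 21.4% and 7.14%, beside 3.74% and 0.854% of all tested genes. Macrophage markers summed to 84.0 to 256 CPM in PLT-HSC, 93.8 to 403 CPM in PEM-HSC and 48.6 to 70.9 CPM in MUL-HSC, so that MUL-HSC lay below both other classes. Among their 13 genes, Cd68 made up much of the sum, with 123 ± 85.0 CPM in PLT-HSC, 80.0 ± 81.2 CPM in PEM-HSC and 14.0 ± 3.86 CPM in MUL-HSC. Without Cd68, also left out once the values were known, the sums were 57.8 to 92.5 CPM in PLT-HSC, 64.0 to 163 CPM in PEM-HSC and 31.9 to 58.9 CPM in MUL-HSC, and PLT-HSC replicate 3 fell within MUL-HSC. Of the 9 macrophage markers tested 0 were called, 5 had a positive and 4 a negative fold change in PLT-HSC (median 0.02 on the log2 scale), and 8 had a positive one in PEM-HSC (median 2.30). Those negative in PLT-HSC were Cd163, Vcam1, Axl and C1qa. Without overlap, 1 marker, Cd68, lay above MUL-HSC in both PLT-HSC and PEM-HSC, and 1, Cd163, lay below it in PLT-HSC. Each is 11.1% of the tested markers. Beside this, 3.74% of all tested genes lay higher and 3.04% lower in PLT-HSC, and 0.854% higher in PEM-HSC. Cd163, a scavenger receptor, was at 3.16 ± 0.313 CPM in PLT-HSC, 7.41 ± 5.26 CPM in PEM-HSC and 10.6 ± 4.36 CPM in MUL-HSC. Csf1r, the receptor that defines macrophages, was at 0 in all PLT-HSC and MUL-HSC libraries and at most 0.0358 CPM in PEM-HSC, and Marco was at 0 in all libraries. The part of the macrophage markers in the Vwf level was not tested. Erythroid markers summed to 35.7 to 120.1 CPM in PLT-HSC, 19.8 to 144 CPM in PEM-HSC and 16.6 to 43.5 CPM in MUL-HSC. B cell markers summed to 90.9 to 152 CPM in PLT-HSC, 97.6 to 185 CPM in PEM-HSC and 105 to 168 CPM in MUL-HSC.

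**Figure D5:**
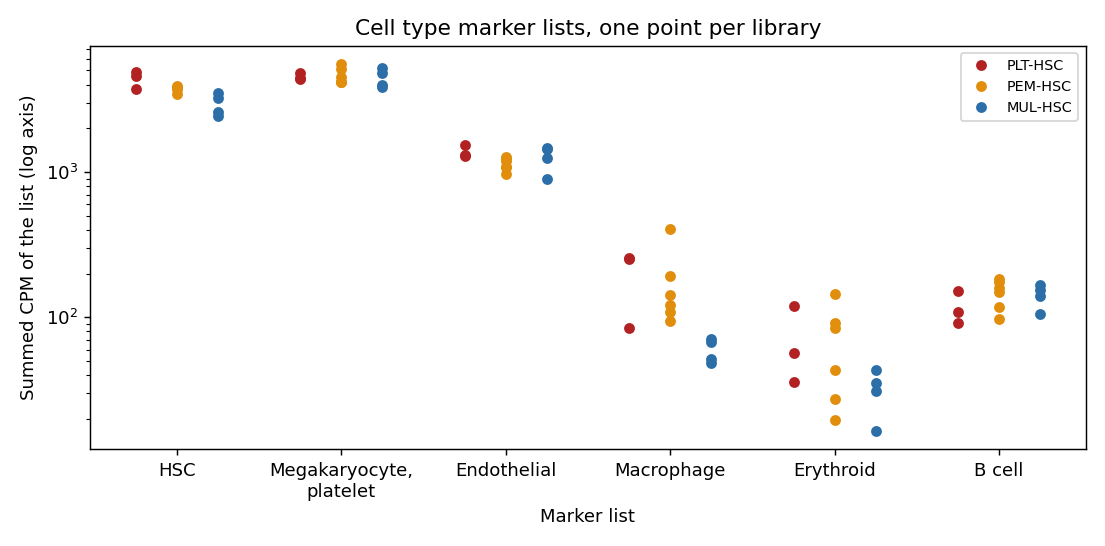
Summed CPM of 6 marker lists on a log axis, with 1 point per library coloured by class. The macrophage sums of all MUL-HSC libraries, 48.6 to 70.9 CPM, lie below those of the other classes, and the megakaryocyte and endothelial sums, with Cd34 among the endothelial genes, overlap between classes.

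Vwf lies on mouse chromosome 6, with no annotated gene overlapping it in RefSeq order on GRCm38.p6. Among the genes counted here, the nearest are Plekhg6 and Cd9 on one side and Ano2 and Ntf3 on the other. Annotated genes absent from the counts were passed over. The files use mm9, so no coordinates are given. Cd9, a tetraspanin of platelets and HSCs, is the nearest counted gene on its side. It had 414, 557 and 413 CPM in PLT-HSC and 382, 423, 588 and 427 CPM in MUL-HSC. Across PEM-HSC libraries its lowest, median and highest levels were 347, 523 and 613 CPM. Its classes overlapped, and its log2 fold changes were 0.03 (SE 0.22, edgeR adjusted p = 0.999) for PLT-HSC and 0.14 (SE 0.19, edgeR adjusted p = 0.999) for PEM-HSC against MUL-HSC. Class-centred r with Vwf was 0.55 over 13 libraries and 0.06 without PEM-HSC replicate 6 and MUL-HSC replicate 1. Over the 6 PEM-HSC libraries alone r was 0.90. Ano2 was at 0 in every library, and the other neighbours were detected patchily. Plekhg6 reached 5.89 CPM in PLT-HSC, 1.96 CPM in PEM-HSC and 2.26 CPM in MUL-HSC, and Ntf3 reached 21.6 CPM in PLT-HSC, 8.32 CPM in PEM-HSC and 2.95 CPM in MUL-HSC. The large class difference of Vwf was thus not seen in the abundant neighbour Cd9.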

How the data were processed

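Per the labels, polyadenylated RNA of 100 sorted cells was amplified with Smart-seq+ and sequenced as Nextera XT libraries. The tools listed are featureCounts, STAR, FastQC and Trimmomatic, with build mm9, per the submitters' processing notes. Versions, settings and strand mode are not given in the sources used here, so reads of genes that overlap, or lie antisense to each other, cannot be separated. The deposited table holds raw counts of reads per gene, as deposited by the authors without normalization. The 92 spike-in rows were left out of totals and tests.

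Counts were fitted in edgeR 4.0.16 (R 4.3.3) after filterByExpr and TMM, with a robust quasi-likelihood model over all 13 libraries and 12536 genes. Slopes on Vwf used class-centred log2 CPM (prior count 2), and the likeness rankings used genes with a mean of at least 10 CPM. Alternatives used DESeq2 1.42.0, limma 3.58.1 and 1 library left out at a time. The fits were tested on simulated data, with 50 genes changed by each size. All changed genes had a mean of at least 10 CPM, so the rates do not speak for genes below that level. The adjusted p-value also depends on how many genes change, so the rates need not hold in the real data. For PLT-HSC against MUL-HSC 10% of 2-fold, 60% of 4-fold, 84% of 8-fold and 76% of 16-fold changes were recovered. The slope test recovered 2%, 18% and 78% of slopes of 0.5, 1 and 2 (log2 change per log2 change of Vwf). In the slope test 8 unchanged genes were called. A count of 0 called can thus miss changes of small size. Lengths are those of the longest annotated transcript.

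The members and the gene lists were chosen with earlier results of these data known, and the lists share genes. Named genes are Vwf, the 10 closest to it, the 5 highest and 5 lowest class-centred correlations, the smallest slope p-values, called list members, the 4 most abundant members of each list and the neighbours of Vwf. For 1 list, 1 gene that this rule names is not reported here. The other genes named were chosen after their values were seen. Replicate numbers were compared across classes and did not pair the libraries.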

Additional observations from a re-analysis of the deposited data

Results flagged for a closer look

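Within classes of 4 or 6 libraries, 129 sets of values from 65 named genes were examined for a library standing apart from the rest of its class, and 17 did. A chance rate of about 1 in 20 such sets would hold only for genes picked without regard to their values. Many of the genes here were picked by their values, among them patchy genes with the smallest slope p-values. The 17 of 129 therefore cannot be weighed against that rate, and no excess can be read from it. Vwf itself was not among the 17.

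Among the genes closest to Vwf, Exoc6b had 28.2 CPM in PEM-HSC replicate 4, against 54.7 to 68.6 CPM in the other PEM-HSC libraries, and Ces2g had 79.7 CPM in MUL-HSC replicate 3, against 19.6 to 22.8 CPM in the other MUL-HSC libraries. Among genes with the smallest slope p-values, 4 had 1 library high in a class otherwise at or near 0. Zfp300 had 16.8 CPM in MUL-HSC replicate 3, against 0 to 0.0386 CPM in the others of its class. Zfp786 had 11.2 CPM in PEM-HSC replicate 3, against 0 to 0.0862 CPM, and 13.4 CPM in MUL-HSC replicate 3, against 0. Kbtbd13 had 3.88 CPM in PEM-HSC replicate 6, against 0, and 1.08 CPM in MUL-HSC replicate 1, against 0 to 0.0386 CPM. Nat14 had 3.36 CPM in PEM-HSC replicate 6 and 2.34 CPM in MUL-HSC replicate 1, against 0 in the others of each class.

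Of the neighbours of Vwf, Plekhg6 had 2.26 CPM in MUL-HSC replicate 3 and Ntf3 had 2.95 CPM in MUL-HSC replicate 4, against 0 in the other MUL-HSC libraries. Among list members, the disulfide isomerases Pdia3 and Pdia6 had 931 and 818 CPM in MUL-HSC replicate 4, against 545.7 to 609.0 CPM and 533.5 to 568.05 CPM in the others of that class. Ctla2a had 3805 CPM in MUL-HSC replicate 2, against 1006 to 1320.2 CPM. Lsp1 had 553 CPM in PEM-HSC replicate 3, against 265 to 319 CPM, and Rap1b had 1291 CPM in PEM-HSC replicate 2, against 463 to 756 CPM. Mllt3 had 309.9 CPM in MUL-HSC replicate 3, against 154 to 159 CPM.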

How the results depend on the processing

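The log2 fold change of Vwf kept its sign under the 26 alternatives run in each comparison: 3.38 to 3.89 for PLT-HSC and 2.61 to 3.11 for PEM-HSC against MUL-HSC, and 0.48 to 1.11 for PLT-HSC against PEM-HSC. Counts of called genes were not stable, and the causes were not tested. The count for PLT-HSC against MUL-HSC, 5, was 3 without TMM, 10 without a filter on low counts, 13 with a mean of at least 10 CPM, 3 without robust estimation, 261 by DESeq2, 0 by voom, 0 with only the 2 groups compared and 1 without MUL-HSC replicates 1 and 2, a setting added after the data were seen. It was 1 with the replicate block, which left 0 in the other comparisons and in the slope test. Leaving out 1 library at a time gave 0 to 36. For PEM-HSC against MUL-HSC the count, 0, was 176 by DESeq2, 1 by voom, 1 without MUL-HSC replicates 1 and 2, and 0 to 3 with 1 library left out. For PLT-HSC against PEM-HSC the count, 0, was 115 by DESeq2, 1 by voom and 0 to 2 with 1 library left out. The slope count, 0, was 75 by DESeq2, 3 by DESeq2 over genes with a mean of at least 10 CPM, and 0 with any library left out.

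Of the 10 genes closest to Vwf, 0 stayed without MUL-HSC replicates 1 and 2 and 3 to 10 with 1 library left out. Of the 10 within-class genes, 5 stayed with total-count CPM, 5 without a CPM minimum, 4 by Spearman's rho, 3 without MUL-HSC replicates 1 and 2, 0 without the 2 libraries with the most extreme centred Vwf, and 1 to 8 with 1 library left out. With 1 library left out, members of the list reported with Vwf without overlap against MUL-HSC numbered 15 to 24 in PLT-HSC. In PEM-HSC they numbered 5 to 12. In the list of Vwf-negative cells the counts were 8 to 10 and 3 to 8. The share of all genes was not counted in these smaller sets, where fewer libraries had to lie apart. Genes with every MUL-HSC library below every other numbered 161 without MUL-HSC replicates 1 and 2 and 51 to 139 with 1 library left out. Medians of the receptor, cleavage, processing, regulator, megakaryocyte and endothelial lists moved by over 1.5 times in at least 1 comparison when a single library was left out. In the shallowest library a level of 0.183 CPM is 3 counts.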
